A study of Mus musculus with 2 samples.

Results

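Retinoids are vitamin A and the compounds made from it. The 9 genes described here take part in storing retinol in the liver, in making retinoic acid from it and in clearing that acid: Lrat, Rbp4, Crabp2, Rdh10, Rdh11, Aldh1a2, Cyp26a1, Cyp26b1 and Rarb. They were chosen by gene symbol, as 9 of the 22803 genes named on the array, at a time when their treatment ratios on these same arrays were already known, so every value below is a description and none carries a test. All 9 were matched by symbol, to 10 probes in all, with 1 probe each for 8 of the genes and 2 for Rarb.

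Liver RNA was hybridised to 2 Agilent 2-colour arrays, 1 for wild-type mice and 1 for AID transgenic mice, both on the C57BL/6 strain. AID is activation-induced cytidine deaminase, an enzyme that deaminates cytosine in DNA. On each array the Cy5 dye marked liver RNA of mice that drank thioacetamide, a liver toxin, for 6 months, and the Cy3 dye marked liver RNA of untreated mice of the same genotype. Each genotype had 1 array and dyes were not swapped, so a dye effect cannot be told apart from treatment, and no difference here has a replicate check. Not given in the sources used here are the age and sex of the mice, the number of animals behind a channel, and the promoter, species of origin and expressing cells of the transgene. The series compares the response of the 2 genotypes to this toxin.

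In liver, retinol is esterified by lecithin retinol acyltransferase and stored as retinyl esters in the lipid droplets of hepatic stellate cells, while hepatocytes secrete retinol into blood bound to its plasma carrier. Retinol is oxidised to retinal by retinol dehydrogenases and retinal is oxidised to retinoic acid by aldehyde dehydrogenases. Retinoic acid binds nuclear receptors that act on target genes, and enzymes of the Cyp26 family hydroxylate it and so end the signal. Stellate cells lose their retinyl esters when they turn into collagen-producing myofibroblasts in injured liver.

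The first 30 of the 60 bases of the probes behind the genes whose 2 treatment ratios lay farthest apart, and of the probe for the second Cyp26 gene, are shown because each value below rests on hybridisation to these letters. Coordinates are in mm9, per the file headers, and the exon or untranslated part that a probe meets was not annotated here. The Cyp26b1 probe covers chr6:84521952-84522011 on the minus strand and the Lrat probe chr3:82696805-82696864 on the minus strand. The Rarb probes cover chr14:17263367-17263426 and chr14:17264648-17264707, both on the minus strand, and the Cyp26a1 probe covers chr19:37775566-37775625 on the plus strand.
Cyp26b1: gttcgtgtgtctcgttgtggtagcattaat
Lrat: ggcgttgattactgcaaaataaattaactt
Rarb, probe A_55_P1962154: gctttctatgttcatatactgtttaccttt
Rarb, probe A_55_P2084807: aattctgaaggacatgaacccttgacccca
Cyp26a1: atcttcactaacaaggaggaatttaatccc

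Retinoic acid receptors are known to bind pairs of a 6-base motif that follow each other in the same direction. The motif was searched as AGGTCA and as GGGTCA and as AGTTCA and as GGTTCA, on both strands, in the 250 bases before each RefSeq start (GRCm38.p6), with 5, 2 or 1 bases between the copies. RefSeq start windows were matched for 7 of the 9 genes, in 9 windows, and Crabp2 and Rdh10 had no entry. A pair 5 bases apart lay in 2 of these windows, those of Rarb and Cyp26a1, against 0.0883% of all 32851 windows. Pairs 2 and 1 bases apart lay in 0 of the 9 windows, against 0.174% and 0.164% of all windows. A match is a run of letters and says nothing on binding in these livers. Both pairs are shown with their flanks, and capitals mark the 2 copies of the motif; the Rarb window is chr14:16575506-16575535 on the minus strand and the Cyp26a1 window chr19:37697770-37697799 on the plus strand.
Rarb: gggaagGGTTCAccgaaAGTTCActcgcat
Cyp26a1: taaagaTGAACTttgggTGAACTaatttgt
The Rarb pair runs from 53 to 37 bases before the start, in the direction of the gene. The Cyp26a1 pair runs from 32 to 16 bases before the start, on the opposite strand, so it reads as the reverse complement of the motif. The windows of Cyp26b1 and Lrat held no pair at any of these spacings.

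The livers and arrays differed in ways that touch the values below. In the treated wild-type liver Xist, a transcript of the inactive X chromosome, was at least 6.18-fold higher than in the untreated one, and the Y-linked transcripts Ddx3y and Eif2s3y were at least 17.6-fold and 32.1-fold lower. On the AID transgenic array Ddx3y and Eif2s3y had log2 ratios of -0.11 and -0.05, and neither channel held Xist well above background. A difference in these sex-linked transcripts therefore goes with each value that uses the treated wild-type liver, and its part in those values cannot be told apart from treatment or genotype. It does not go with the treatment ratio of the AID transgenic array or with the comparison of the untreated livers. The number of arrays, 2, limits the precision. Between 53.9% and 68.8% of the 43020 non-control spots of a channel were well above background. Repeated spots of 1 probe varied little within an array, with a median SD of the log2 ratio of 0.046 over 262 probes on the wild-type array and 0.047 over 256 probes on the AID transgenic array. Errors printed after ± are the scanner software's error of a log2 ratio for 1 array, which covers spot noise and not mice. They belong to the software's own ratio and are set here beside ratios processed in another way. A ratio within such an error can therefore lie beyond it with the scanner's processed signals.

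Cyp26b1, which hydroxylates retinoic acid for its clearance, stood apart from the other 8 genes. In AID transgenic liver it was 9.40-fold lower with treatment than without, and in wild-type liver 1.66-fold higher. Lrat, the enzyme that makes the stored retinyl esters, had the same pair of directions at a smaller size, 1.44-fold lower and 1.75-fold higher. Rarb, a nuclear receptor for retinoic acid whose own gene is a known target of that acid, was 1.70-fold higher in the treated wild-type liver and within its scanner error of no change on the other array. The carrier Rbp4 and the binding protein Crabp2 had nearly equal ratios on both arrays.

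**Figure D1:**
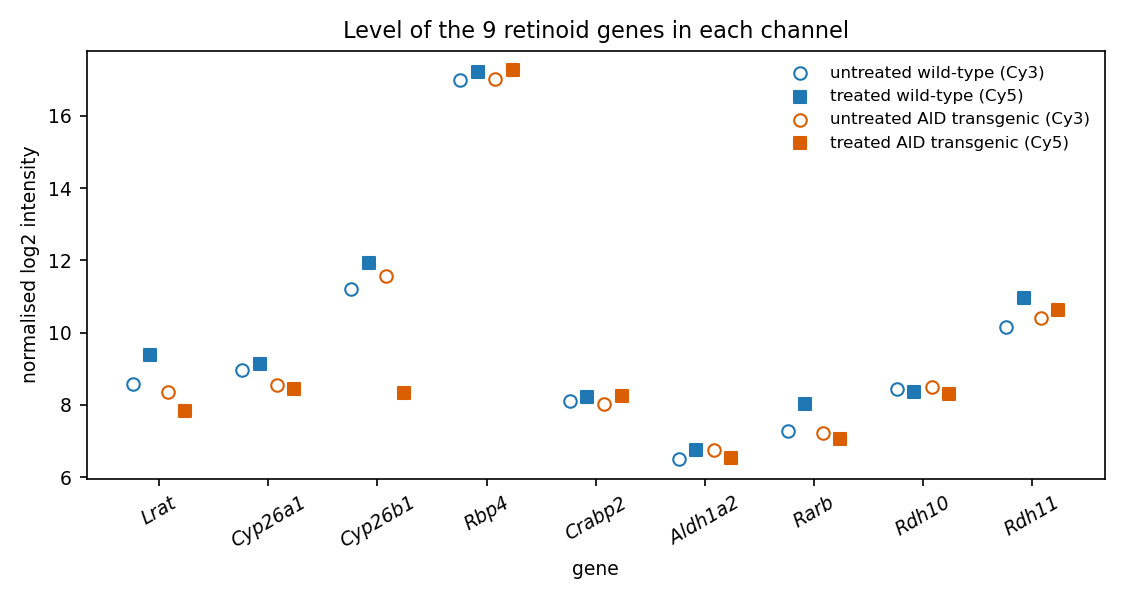
Normalised log2 intensity (y axis) of each of the 9 retinoid genes (x axis) in the 4 channels; open circles are untreated livers, filled squares treated livers, blue is wild-type and orange AID transgenic, 1 value each. Only points of the same gene can be compared: for Cyp26b1 the treated AID transgenic liver sits at 8.33 and the other 3 channels between 11.20 and 11.92.

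Beginning with clearance, the normalised log2 level of Cyp26b1 was 11.20 in untreated and 11.92 in treated wild-type liver, and 11.56 in untreated and 8.33 in treated AID transgenic liver. Thus 3 of the 4 livers lay between 11.20 and 11.92 and the treated AID transgenic liver was far below them. The mean signals as scanned showed the same order within each dye: in Cy5 the spot read 6137 for wild-type and 436 for AID transgenic, and in Cy3 it read 1655 and 1919. The low reading was still well above its local background of 49.0, and no spot of the 9 genes was saturated or marked as an outlier. The log2 treatment ratio of Cyp26b1 was 0.73 ± 0.22 in wild-type and -3.23 ± 0.39 in AID transgenic liver, the second lowest among the 16693 genes measured on that array. The ratios differed by -3.96 ± 0.44, the fifth lowest difference among 17107 genes. Between the untreated livers Cyp26b1 differed by a log2 value of 0.37 (AID transgenic over wild-type), and between the treated livers by -3.59. The AID transgenic ratio lay between -3.54 and -2.58 over the 5 other ways of processing that apply to it. Of these, the brightest probe and the filter on every channel could not move the ratio. Cyp26b1 has 1 probe and was well above background in every channel.

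Cyp26a1, the other member of the Cyp26 family measured well above background and itself a known target of retinoic acid, did not have this pattern. Its log2 levels were 8.97 and 9.14 in untreated and treated wild-type liver and 8.55 and 8.43 in untreated and treated AID transgenic liver. Both AID transgenic livers were lower than both wild-type livers. Its treatment ratios were 0.17 ± 0.21 and -0.12 ± 0.21 in wild-type and AID transgenic, each within its scanner error. The second of them turned to 0.41 when the arrays were centred on their median in place of loess. With the scanner's processed signals it was -0.24, beyond that error. Of all genes measured, 4.44% differed as far from 0 between untreated livers as Cyp26a1 did, at -0.42, and 3.05% between treated livers, at -0.71. A further member of the family, Cyp26c1, was not well above background in any channel. Cyp2c39, a cytochrome P450 also known to hydroxylate retinoic acid in mouse liver, had log2 ratios of -0.51 ± 0.21 in wild-type and -2.27 ± 0.29 in AID transgenic liver.

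For storage, Lrat had log2 levels of 8.58 in untreated and 9.39 in treated wild-type liver, and 8.36 in untreated and 7.83 in treated AID transgenic liver. The untreated livers were close together, and the treated livers lay on opposite sides of them. The ratios were 0.80 ± 0.22 and -0.53 ± 0.22, which differ by -1.33 ± 0.31. Between the treated livers Lrat was 2.95-fold lower in AID transgenic than in wild-type, at a log2 difference of -1.56, and between the untreated livers it was 1.17-fold lower. On the AID transgenic array the Lrat ratio ranged from -0.85 to -0.07 over the other ways of processing, with -0.07 under median centring, which also raised the median of all genes on that array from 0.03 to 0.34.

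Rbp4, the carrier that takes retinol from the liver into blood, had log2 levels of 16.99 and 17.21 in wild-type and 17.03 and 17.26 in AID transgenic liver, untreated before treated. The 2 genotypes were nearly level in each state. Its ratios were 0.21 ± 0.20 and 0.23 ± 0.20, and under median centring they were 1.09 and 1.06, both above 2-fold. Crabp2, which carries retinoic acid to its receptors, had log2 levels of 8.12 and 8.21 in wild-type and 8.03 and 8.24 in AID transgenic liver. All 4 livers lay between 8.03 and 8.24, and its ratios were 0.09 ± 0.21 and 0.21 ± 0.21.

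Next come the genes that make retinoic acid or interconvert retinol and retinal. Rdh10, the dehydrogenase known to start retinoic acid synthesis by oxidising retinol, had log2 levels of 8.45 and 8.36 in wild-type and 8.49 and 8.30 in AID transgenic liver. Its ratios of -0.09 ± 0.21 and -0.18 ± 0.21 were within the scanner error and became 0.46 and 0.33 under median centring. With the scanner's processed signals the second was -0.35, beyond that error. Rdh11, a microsomal enzyme known to reduce retinal back to retinol, had log2 levels of 10.15 and 10.96 in wild-type and 10.41 and 10.63 in AID transgenic liver. Both treated livers were above their untreated partners, by 0.81 ± 0.22 in wild-type and 0.22 ± 0.21 in AID transgenic, and the ratios differed by -0.59 ± 0.30. Aldh1a2, which oxidises retinal to retinoic acid, read close to background as scanned, between 64.2 and 120.0 against local backgrounds of 23.5 to 52.0. Its log2 levels were 6.50 and 6.74 in wild-type and 6.76 and 6.54 in AID transgenic liver. The ratios of 0.24 ± 0.30 and -0.22 ± 0.32 both lay within the scanner error, though with the scanner's processed signals the second was -0.61, beyond that error. They differed by -0.46 ± 0.44, and by -0.99 with an offset of 0 in the background correction and -0.89 with the scanner's processed signals, so the size of the difference depends on the processing.

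For Rarb the mean of both probes gave log2 levels of 7.27 and 8.03 in wild-type and 7.23 and 7.06 in AID transgenic liver. The treated wild-type liver was above the other 3, which lay between 7.06 and 7.27. The ratios were 0.77 ± 0.18 and -0.17 ± 0.23, and they differed by -0.94 ± 0.29. Probe A_55_P1962154 gave 1.08 ± 0.24 in wild-type and -0.24 ± 0.21 in AID transgenic liver. The second probe, A_55_P2084807, gave 0.45 ± 0.28 and -0.10 ± 0.40, the latter within its scanner error. With the scanner's processed signals the 2 probes gave 1.33 and 1.1 in wild-type and -0.46 and 0.18 in AID transgenic liver. Their likeness in size in wild-type liver and in direction in AID transgenic liver therefore depended on the processing. The second probe was not well above background in the untreated AID transgenic liver. This was the exception among the 40 channel values of the probes, of which 39 were well above background.

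**Figure D2:**
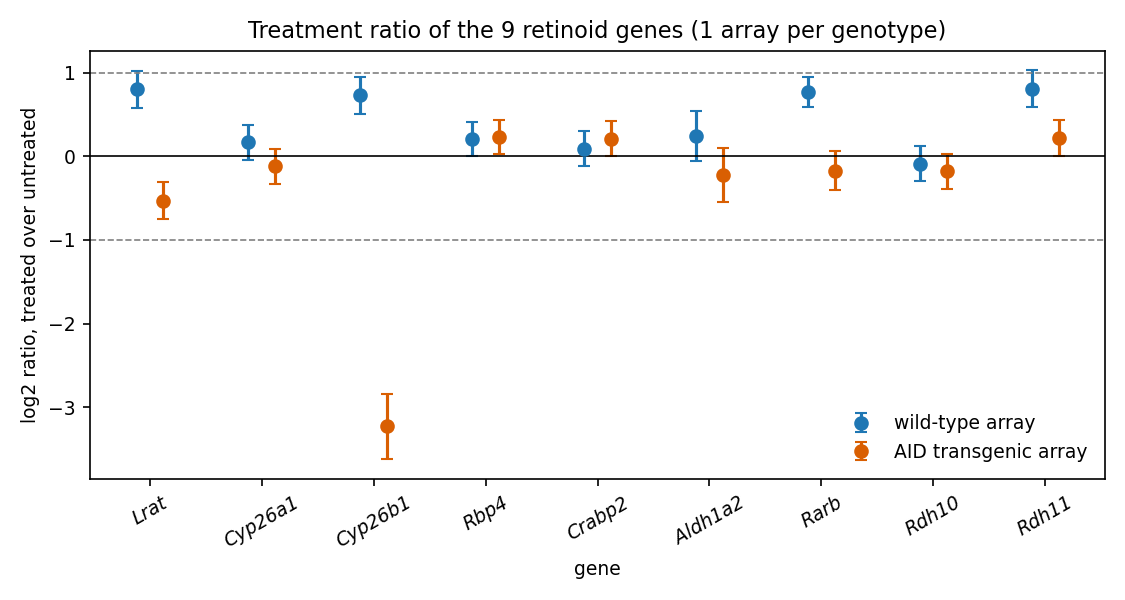
Log2 ratio of treated over untreated liver (y axis) for each of the 9 retinoid genes (x axis), in blue on the wild-type and in orange on the AID transgenic array; bars are the scanner software's error of 1 array and dashed lines mark 2-fold. On the wild-type array all points lie between -0.09 and 0.81, and on the AID transgenic array Cyp26b1 lies at -3.23 with the other 8 between -0.53 and 0.23.

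Counted together, 0 of the 9 genes reached 2-fold on the wild-type array in either direction, beside 1.86% of all 16663 genes measured that were at least 2-fold higher and 1.64% that far lower. For the AID transgenic array 0 were higher and 1, Cyp26b1, was lower, beside 1.22% and 0.947% of 16693 genes. The treatment ratio was at least 2-fold higher on the AID transgenic than on the wild-type array for 0 of the 9 and lower for 2, Cyp26b1 and Lrat, beside 0.929% and 1.05% of 17107 genes. Rarb lay just inside that limit at -0.94, and it passed the limit under 4 other ways of processing, with differences down to -1.36. These ratios were known when the genes were chosen, so nothing is read from the counts.

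In the untreated livers 0 of the 9 genes differed 2-fold between genotypes, beside 0.308% of 14297 genes higher and 0.294% lower in AID transgenic liver. The largest values there were 0.37 for Cyp26b1 and -0.42 for Cyp26a1. In the treated livers 0 were 2-fold higher and 2 were 2-fold lower in AID transgenic liver, beside 0.732% and 0.755% of 17079 genes, and Rarb at -0.97 lay just short of the limit. Rarb passed it under 4 other ways of processing, with values of -1.06 to -1.45, which makes the count 3 in each way that does so. These comparisons set 1 array against the other within a dye. Before that, both arrays were given the same distribution of log intensity averaged over the dyes of a spot.

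The genes did not all move alike. On the wild-type array 8 of the 9 ratios were above 0, with a median of 0.24, and on the AID transgenic array 3 of 9 were above 0, with a median of -0.17. The medians over all genes measured were 0.03 on both arrays. The ratio was lower on the AID transgenic array for 7 of the 9, with a median difference of -0.46, beside 50.5% of all genes measured. For 3 of the 9, Cyp26b1, Lrat and Rarb, the 2 ratios differed by more than 2 times the scanner error of the difference. The share of all genes that did so is not given here. The 9 were also chosen with their ratios known, so nothing is read from this count. Differences kept their sign for 8 of the genes under every other way of processing tried, and that of Rbp4, between -0.05 and 0.01, did not.

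**Figure D3:**
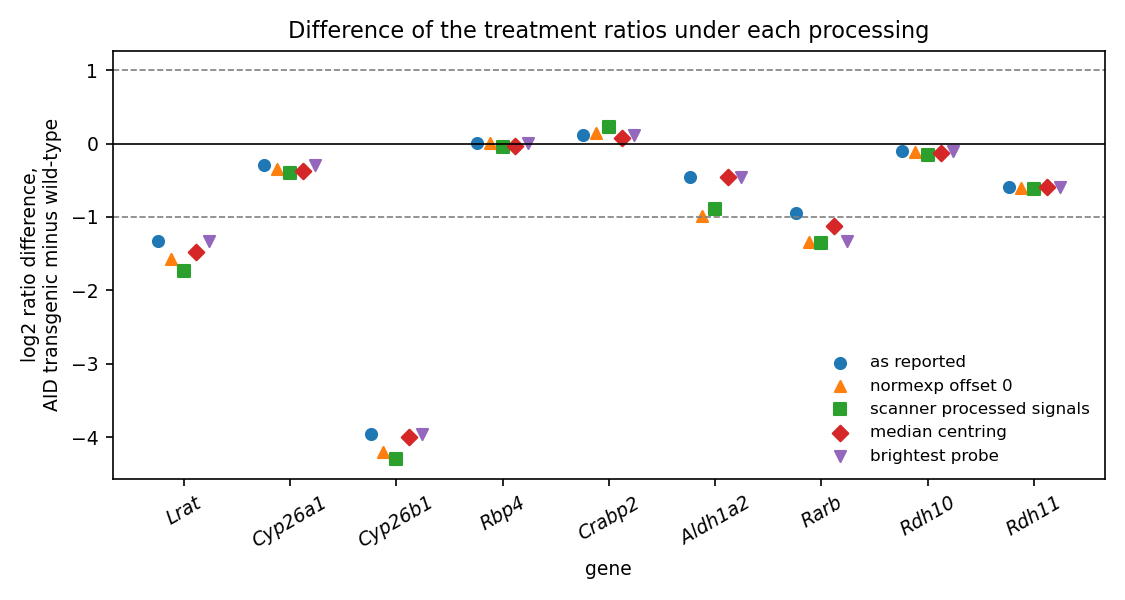
Difference of the log2 treatment ratios, AID transgenic minus wild-type (y axis), for each of the 9 retinoid genes (x axis) as reported and under 4 other ways of processing; dashed lines mark 2-fold. Cyp26b1 lies between -4.30 and -3.96 and Lrat between -1.73 and -1.33, while Rarb lies on both sides of the lower line, between -1.36 and -0.94.

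The other genes of retinoid metabolism and response were taken from 8 lists with 83 genes, of which 75 were measured on each array. On the wild-type array 4 of 75 were at least 2-fold higher and 3 lower, with a median of 0.08. On the AID transgenic array 3 were higher and 1 lower, with a median of 0.03. Under median centring the splits were 17 higher and 0 lower in wild-type, which ends the lower calls of Fabp5, Aox3 and Rarres1 given below, and 12 higher and 1 lower in AID transgenic liver. The difference of the ratios was 2-fold for 3 of 76 genes: Aox3 at 1.33 ± 0.33, Rdh16f2 at -2.19 ± 0.23 and Cyp2c39 at -1.76 ± 0.36.

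Among genes of transport and binding, 1 of 11 measured was 2-fold higher and 1 lower on the wild-type array. Cd36, a fatty acid receptor, had ratios of 2.15 ± 0.29 and 1.67 ± 0.27 on the wild-type and AID transgenic arrays, and Fabp5, which also carries retinoic acid, had -1.37 ± 0.24 and -0.41 ± 0.21. Lpl, the lipase that aids uptake of retinyl esters from lipoproteins, hardly differed with treatment, at 0.12 and 0.00, and differed between the untreated genotypes by 1.72. Ttr, the partner of Rbp4 in blood, had ratios of -0.25 ± 0.21 and 0.08 ± 0.20. Stra6, a receptor for Rbp4, was not well above background in any channel. Stra6l, from the same list, was well above background in every channel, with ratios of -0.04 ± 0.20 and -0.22 ± 0.20.

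Of the 9 measured genes that make or hydrolyse retinyl esters, 0 reached 2-fold on either array. Dgat1, a second enzyme able to esterify retinol, had ratios of -0.36 ± 0.21 and -0.19 ± 0.21, and Ces1d, a retinyl ester hydrolase, had 0.41 ± 0.21 and -0.11 ± 0.20.

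Among 19 measured genes that interconvert retinol and retinal, 2 were 2-fold higher on the wild-type array and 1 on the AID transgenic array. Adh1, an alcohol dehydrogenase that oxidises retinol, had 1.49 ± 0.24 and 1.05 ± 0.22. Rdh16f2, a retinol dehydrogenase family gene, had 1.57 ± 0.18 and -0.62 ± 0.15, and its 2 probes agreed, between 1.45 and 1.69 on the first array and between -0.64 and -0.60 on the second. Hsd17b6, of the same enzyme family, differed between untreated genotypes by 1.53. Dhrs3, a retinal reductase that retinoic acid is known to induce, had 0.26 ± 0.21 and 0.08 ± 0.20.

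Of 6 genes listed under the oxidation of retinal, Aldh1a1 was 2-fold higher on both arrays, with 1.45 ± 0.24 and 1.60 ± 0.24. Aox3, an aldehyde oxidase, had -1.61 ± 0.25 in wild-type and -0.27 ± 0.21 in AID transgenic liver. Aldh1a7, a further aldehyde dehydrogenase, is listed by RefSeq as a synonym of Aldh1a2 but has a name of its own on the array, was kept apart from it and had 0.30 ± 0.21 and 0.87 ± 0.22. The 2 measured genes of carotenoid cleavage, Bco1 and Bco2, did not reach 2-fold, at 0.40 and 0.12 in wild-type and -0.09 and -0.12 in AID transgenic liver.

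None of the 12 retinoid receptors and coregulators was 2-fold on either array. Rarg had 0.75 ± 0.22 and 0.10 ± 0.20, beside 0.77 and -0.17 for Rarb, Rara had -0.30 ± 0.15 and 0.31 ± 0.15, and the shared partner Rxra had -0.53 ± 0.15 and -0.43 ± 0.15. Of the retinoic acid response genes, 1 of 14 measured was 2-fold on the wild-type array, Rarres1 at -1.52 ± 0.25, and 0 of 15 on the AID transgenic array. Tgm2, a transglutaminase whose gene is a known target of retinoic acid, had 0.31 ± 0.15 on both arrays, and Stra8 was not well above background in any channel.

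**Figure D4:**
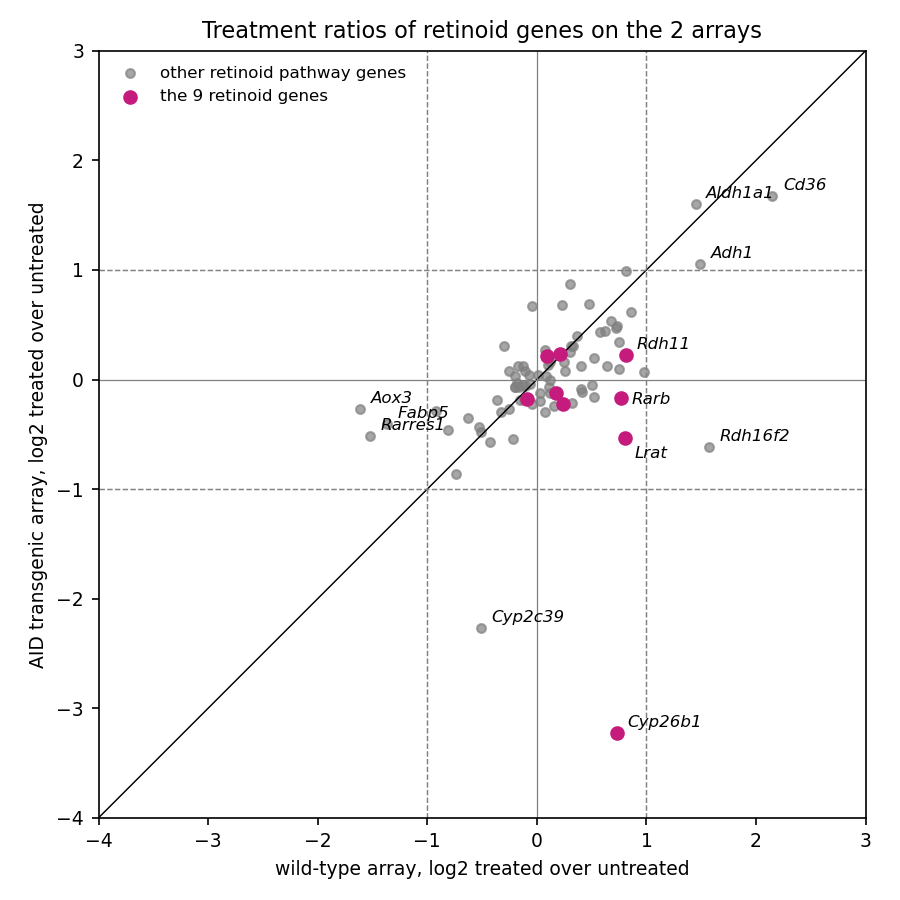
Log2 treatment ratio on the wild-type (x axis) and AID transgenic array (y axis) for the 9 retinoid genes (magenta) and the other retinoid pathway genes well above background in at least 1 channel (grey); the solid line marks equal ratios and dashed lines 2-fold. Cyp26b1 at 0.73 and -3.23 lies farthest below the line, followed by Rdh16f2 at 1.57 and -0.62 and Cyp2c39 at -0.51 and -2.27.

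Markers of liver cell types were read beside these values, because Lrat and other retinoid genes are known from stellate cells and fewer cells of a type cannot be told apart from less RNA per cell in whole liver. Of 15 stellate cell markers, 0 reached 2-fold in any comparison. Their median ratio was 0.09 in wild-type and -0.20 in AID transgenic liver. All 15 had the lower ratio on the AID transgenic array, beside 50.5% of all genes measured, with a median difference of -0.30 and a range from -0.96 to -0.04. Some of these differences lay within their scanner error, such as Ngfr at -0.04 ± 0.30 and Reln at -0.07 ± 0.46. Others lay beyond it, such as Pdgfra at -0.96 ± 0.32. Their summed linear level was 13000 and 14000 in untreated and treated wild-type liver and 13300 and 11400 in untreated and treated AID transgenic liver. The ratio of Cyp26b1 on the AID transgenic array, -3.23, was below those of all 15 markers, the lowest of which was -0.72, for Ecm1. Among defining markers Pdgfrb had 0.68 and 0.06, Pdgfra 0.52 and -0.45, Des -0.10 and -0.31 and Reln -0.23 and -0.30, while Gfap had 0.03 and -0.01 with scanner errors of 0.82 and 1.03.

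Of the 10 measured myofibroblast markers, 3 collagen genes were 2-fold higher on the wild-type array, Col1a1 at 1.60 ± 0.26, Col3a1 at 1.39 ± 0.25 and Col1a2 at 1.04 ± 0.23. The smooth muscle genes Acta2, Cnn1 and Myl9 passed 2-fold downward in AID transgenic liver, at -1.89, -1.96 and -1.63, where the untreated liver started 1.41, 1.34 and 1.06 above wild-type on the log2 scale. The summed level of the list was 6430, 8180, 10300 and 5480 in untreated and treated wild-type and untreated and treated AID transgenic liver. The list was not uniform: Acta2, Cnn1 and Myl9 were highest in untreated AID transgenic liver, whereas Col1a1, Col1a2 and Col3a1 were highest in treated wild-type liver, at log2 levels of 10.13, 10.65 and 10.51.

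Mesothelial cells are also known to express retinoid genes. Of 7 markers, 5 were well above background in treated wild-type liver, 3 in treated AID transgenic liver and 1 in each untreated liver. Over all non-control spots, 68.4% were well above background in Cy5 and 56% in Cy3 on the wild-type array. On the AID transgenic array these shares were 68.8% and 53.9%. Treated livers were all in Cy5, so dye and treatment cannot be told apart in these counts. Msln had ratios of 0.99 ± 0.34 and -0.81 ± 0.36. Summed levels of this list were 528, 741, 581 and 527 in untreated and treated wild-type and untreated and treated AID transgenic liver. Markers not well above background enter these sums, so the sums say little on mesothelial content. For hepatocytes the sums were 985000, 715000, 976000 and 743000, with both treated livers lower, and 3 of 11 markers passed 2-fold downward in wild-type (Apoa1, Tat and Pck1) and 4 in AID transgenic liver (the same 3 and Cyp2e1). The 7 sinusoidal endothelial markers did not reach 2-fold, with sums of 23500, 20200, 22700 and 23200. The 6 Kupffer cell markers had sums of 12600, 15800, 17600 and 36900, highest in the treated AID transgenic liver, where Cyp26b1 was lowest. On the AID transgenic array 3 of the 6 were at least 2-fold higher, beside 1.22% of all genes measured: Cd5l at 1.48, Vsig4 at 1.12 and Clec4f at the limit. Between treated livers all 6 were higher in AID transgenic than in wild-type, 4 of them, Marco included, at least 2-fold, beside 0.732% of all genes measured. Between the untreated livers Marco differed by 2.54 and the other 5 lay between -0.15 and 0.24. Cholangiocyte markers summed to 1090, 1380, 1190 and 1030, with differences of the ratios of -1.46 for Krt19 and -1.14 for Spp1, and adipocyte markers to 1350, 1300, 1330 and 1570. The part of any of these cell types in the retinoid values was not tested.

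**Figure D5:**
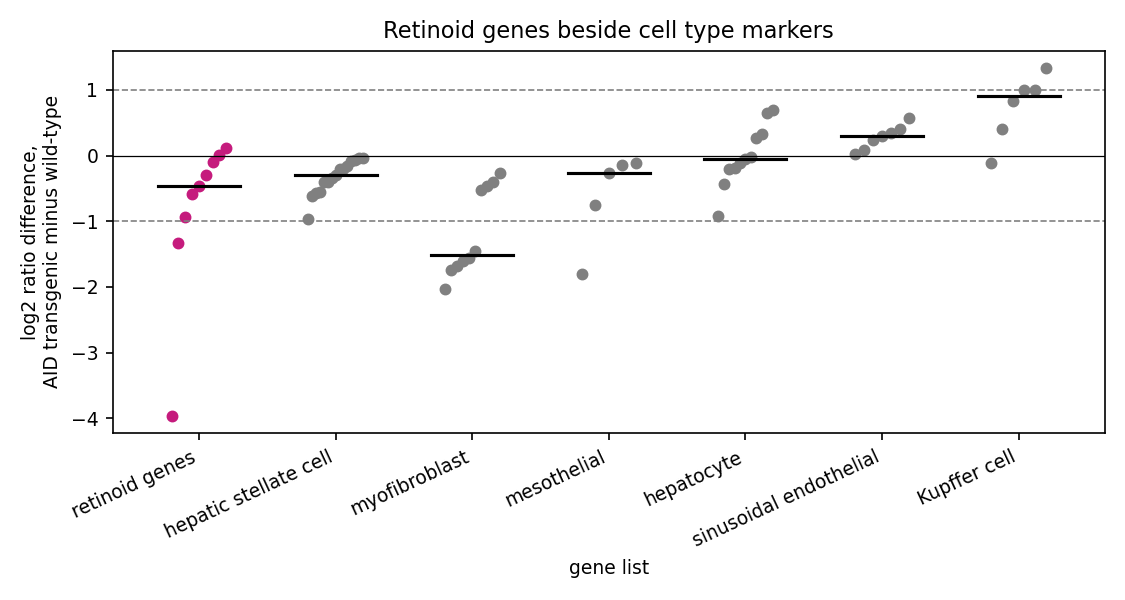
Difference of the log2 treatment ratios, AID transgenic minus wild-type (y axis), for the 9 retinoid genes (magenta) and for cell type marker lists (grey), each point a gene well above background in at least 1 channel; black bars are medians and dashed lines mark 2-fold. The medians are -0.46 for the retinoid genes, -0.30 for stellate cell, -1.51 for myofibroblast and 0.91 for Kupffer cell markers.

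Cyp26b1 alone of the 9 reached 2-fold on either array, and the genes nearest to its pattern over the 4 channel levels were sought among 13457 genes well above background in all 4, after centring each gene on its own mean. The nearest 3 were the cytochrome P450 genes Cyp2c54, Cyp2c29 and Cyp2c39, at Euclidean distances of 1.24, 1.36 and 1.37 log2 units. Cyp2c54 had ratios of -0.17 ± 0.12 and -2.18 ± 0.17 on the wild-type and AID transgenic arrays, and Cyp2c29 had -0.53 ± 0.21 and -2.44 ± 0.30. All 3 were below 0 on the wild-type array, where Cyp26b1 was above 0, and were low in the treated AID transgenic liver, by -1.85, -1.71 and -1.68 against treated wild-type. Likeness over 4 values is a description of these channels, and cross-hybridisation among the closely related Cyp2c genes was not tested.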

How the data were processed

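The authors deposited the scanner output of 2 Agilent 2-colour arrays. Per the file headers, these hold uncorrected intensity for each spot (mean signal and local background median) and intensity after the software's background and dye correction (processed signal). The deposited ratio is log10 of Cy5 over Cy3 processed signal, and its deposited error is a score of the software's error model. The deposited value table equalled that log10 ratio on all 44397 features, with a tolerance of 0. The headers name Feature Extraction 10.7.3.1, whereas the submitters' processing notes name 10.5.1.1.

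From these, limma 3.58.1 in R 4.3.3 applied normexp background correction with an offset of 50 and loess within each array, with control and outlier spots at weight 0. Channel levels followed Aquantile scaling between arrays. Spots of a probe and probes of a gene were averaged, and errors are the deposited ones on the log2 scale. Of 39429 probes, 26055 were named through RefSeq by accession, 3195 by symbol and 930 by synonym; 9249 kept no RefSeq match. Genes counted as measured when at least 1 channel of a comparison was well above background, and as 2-fold at a log2 value of 1 or more in size. With 1 array per genotype there are no p-values.

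The 9 genes and all lists were chosen with earlier results of these data known. Named genes are all 9, the 3 genes nearest in pattern, and sex-linked transcripts and cell type markers that move with a result. From each pathway list they are the highest and lowest genes past 2-fold and up to 2 more, or 2 well-known genes where none passed. Stra6, Stra6l, Stra8, Cyp26c1, Dhrs3, Tgm2, Ttr, Rxra and Aldh1a7 were named after their values were seen. Background correction and loess were tested on simulated spots with known fold changes. Alternatives were an offset of 0, the processed signals, median centring, the brightest probe per gene, only genes well above background in every channel, and quantile normalization between arrays.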

Additional observations from a re-analysis of the deposited data

Results flagged for a closer look

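For 2 of the 9 genes the arrays pointed in opposite directions beyond the scanner error of each ratio. The log2 ratio of treated over untreated Cyp26b1 was 0.73 in wild-type and -3.23 in AID transgenic liver, a difference of -3.96. For Lrat it was 0.80 and -0.53, a difference of -1.33. With 1 array per genotype neither difference was tested, and the difference in sex-linked transcripts of the treated wild-type liver goes with both.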

How the results depend on the processing

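Among values of the 9 single genes under alternatives, 214 moved by less than the scanner error set against them and 29 by more. For comparisons of the genotypes within untreated or treated livers, that error was the combined one of the 2 treatment ratios. It is not an error of those values themselves. The 214 include values that could not move, so they do not measure stability. The filter on every channel leaves a value as it is, and the brightest probe can change only Rarb, which has 2 probes. The count of the 9 genes at least 2-fold on the wild-type array, 0 as reported, was 1 with an offset of 0, 1 with the processed signals, 1 with the brightest probe and 5 under median centring, and on the AID transgenic array it went from 1 to 2 under median centring. Other pathway genes at least 2-fold went from 7 to 12, 13 and 17 (wild-type) and from 4 to 7, 12 and 13 (AID transgenic) with an offset of 0, processed signals and median centring, the last with 17 higher and 0 lower in wild-type against 4 and 3 as reported. For the difference of the ratios they went from 3 to 7 and 12 with an offset of 0 and processed signals, and for the untreated livers from 2 to 4 with processed signals. Over all genes, 584 were 2-fold on the wild-type array (310 higher, 274 lower), and 1188 (782, 406), 2181 (1576, 605) and 1831 (1729, 102) under an offset of 0, processed signals and median centring. On the AID transgenic array 361 (203, 158) became 889 (620, 269), 1992 (1518, 474) and 1411 (1358, 53). With an offset of 0 and with processed signals, the difference went from 339 to 880 and 1745, the untreated comparison from 86 to 205 and 419, and the treated one from 254 to 468 and 922. Median centring raised the median of all genes from 0.03 to 0.35 and 0.34 on the wild-type and AID transgenic arrays. No paired analysis was possible because there was 1 array per genotype, and no replicate could be left out. Signals near background, as for Aldh1a2 and the second Rarb probe, limit those ratios, and an offset draws them toward 0.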
